A study of Mus musculus with 6 samples.

Results

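The natriuretic peptide system of the heart was followed as 7 genes, taken by name from the 26881 genes of the deposited expression table: the ligand genes Nppa and Nppb, the protease genes Corin and Furin, and the receptor genes Npr1, Npr2 and Npr3. All 7 were found, and all 7 reached the mean of at least 1 FPKM (fragments per kilobase of exon scaled to the total of the library) over the 6 libraries that a gene needed to be tested. RNA-seq was performed on hearts of 2-week-old mice, 3 of cardiomyocyte-specific Cfp1 knockouts (Cfp1-cKO, labelled CXXC1 null) and 3 of wild-type littermate controls (WT). In Cfp1-cKO mice (Myh6-Cre: Cfp1 flox/flox) the Cre recombinase was driven by the promoter of Myh6, which is active in cardiomyocytes, so that the other cells of the heart kept the gene. The Cre and floxed alleles of the WT animals, and whether a library was made from 1 heart or several, are not given in the sources used here, so the p-values rest on the spread among these libraries alone, which may be technical.

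Atrial natriuretic peptide (ANP, from Nppa) and B-type natriuretic peptide (BNP, from Nppb) are hormones that cardiomyocytes secrete when the wall is stretched, and they promote salt excretion and relax vessels. Corin, a serine protease of the cardiomyocyte surface, cleaves the ANP precursor, and furin, a protease of the secretory pathway, cleaves the BNP precursor. Npr1 is the receptor of both peptides and makes cyclic GMP (cGMP), Npr2 is the cGMP-making receptor of C-type natriuretic peptide (CNP, from Nppc), and Npr3 binds all of these peptides and removes them. Nppa is transcribed in the ventricles of the fetal heart and becomes largely restricted to the atria after birth, and ventricles under load transcribe both ligand genes again.

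Nppb and Nppa lie next to each other in the same orientation on chromosome 4 of GRCm38, Nppb at chr4:147985788-147987205 and Nppa at chr4:148000722-148002079, with 13516 bases between them. The sequence just before the start of each ligand gene is shown because these promoters have been studied as targets of cardiac transcription factors, and that of Npr1 because Cfp1 binds unmethylated CpG. The sequences are from RefSeq (GRCm38.p6), in which all 7 genes had an entry, and positions are counted back from the RefSeq start. Searched on both strands were GATAA (GATA factors), CATTCC (the M-CAT sequence of Tead factors), TGANTCA (AP-1), AGGTGTNA (T-box factors), AAGTG (Nkx factors) and the CArG box (Srf), and on the coding strand TATAAA. Capitals mark these matches in Nppa and Nppb and every CpG in Npr1. RefSeq starts Nppb 112 bases downstream of the start in the deposited table, and of the stretch between both starts only the 27 bases that span its GATAA and CATTCC matches are shown.
Nppb, 27 bases, chr4:147985795-147985821, plus strand: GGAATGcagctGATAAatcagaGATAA
Nppa, 250 bases, chr4:148000472-148000721, plus strand: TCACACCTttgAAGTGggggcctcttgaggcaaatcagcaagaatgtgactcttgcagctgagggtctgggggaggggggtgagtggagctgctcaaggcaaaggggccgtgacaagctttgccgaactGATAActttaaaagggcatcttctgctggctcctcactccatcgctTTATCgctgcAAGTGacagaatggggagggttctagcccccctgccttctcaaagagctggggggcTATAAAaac
Npr1, 250 bases, chr3:90465867-90466116, minus strand: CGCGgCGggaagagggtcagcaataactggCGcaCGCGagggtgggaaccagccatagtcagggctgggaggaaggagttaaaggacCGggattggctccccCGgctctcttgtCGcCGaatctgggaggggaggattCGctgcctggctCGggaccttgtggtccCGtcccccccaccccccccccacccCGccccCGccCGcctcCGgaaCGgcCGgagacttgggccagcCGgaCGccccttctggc

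The 250 bases before Nppb held GATAA at -94 and -83, CATTCC on the other strand at -105 and TATAAA at -31. Those before Nppa held GATAA at -121 and, on the other strand, at -75, AGGTGTNA on the other strand at -250, AAGTG at -239 and -65, and TATAAA at -9. None of these matches overlapped another. Of 32851 promoters of the same length, 22.6% held GATAA, 12.6% CATTCC, 2.68% AGGTGTNA, 40.7% AAGTG and 7.59% TATAAA. Neither window had a match of TGANTCA, which 6.75% of promoters held, or of the CArG box, which 1.47% held. Of the other 5 genes, Furin alone had a match, with 4 of AAGTG and 1 of TATAAA before the farther upstream of its 2 starts. The promoter windows of the ligands held 5 CpG (Nppb) and 4 CpG (Nppa), inside the quartiles of 2 and 16 over all promoters, whose median was 6. Npr1 had 21 CpG, more than 83.7% of promoters. Npr2 had 13, Npr3 had 6, Corin had 2, and the windows at the starts of Furin had 40 and 6. The windows of Npr3 (chr15:11907372-11907621) and Corin (chr5:72504541-72504790) lay upstream of the starts in the deposited table, 11905674 and 72504473, without reaching them.

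Library totals worked back from the FPKM steps were 16672652 to 19481847 fragments in Cfp1-cKO and 18007474 to 22700811 fragments in WT. Cxxc1, which encodes Cfp1, stood at 8.02, 9.94 and 8.74 FPKM in Cfp1-cKO hearts, against 9.66, 12.9 and 10.03 FPKM in WT hearts, overlapping ranges, with a log2 fold change of -0.26 (limma adjusted p = 0.249, standard error 0.16). These values are summed over all exons and all cell types of the heart and do not measure the deletion. Genotypes were compared with limma on log2(FPKM + 1), a scale that understates changes of low genes, and calls needed both a Benjamini-Hochberg adjusted p under 0.05 and a log2 fold change beyond 0.5 in either direction. Over all tested genes the median log2 fold change was 0.35, so each member is also given after median-of-ratios scaling over the tested genes, which brings that median to 0.00. After this scaling Cxxc1 was at 7.51, 8.12 and 7.08 FPKM in Cfp1-cKO, against 11.3, 15.7 and 11.0 FPKM in WT, without overlap, and its log2 fold change was -0.66 (limma adjusted p = 0.0571, not called). With scaling over all genes it was -0.75 (limma adjusted p = 0.0495), which met both thresholds of a call. The Cfp1-cKO libraries carried RNA of lung epithelium: 11 of 12 such markers were called higher and the other was not tested, and the 12 summed to 3217 to 4886 FPKM in Cfp1-cKO and 0.42 to 3.96 FPKM in WT. Of these markers, 9 were listed at 0 in at least 1 WT library and 1 in all 3. Atrial cardiomyocyte markers summed to 50.8 to 265.7 FPKM in Cfp1-cKO and 734 to 1322 FPKM in WT, with 3 of 7 called lower. Ventricular cardiomyocyte markers overlapped between genotypes in sum, at 3550 to 5160 FPKM in Cfp1-cKO and 3828 to 6498 FPKM in WT, with 1 of 6 called lower as deposited and 2 after scaling. The call as deposited was lost without Cfp1-cKO replicate 1, Cfp1-cKO replicate 2, WT replicate 1 or WT replicate 3. In tissue of many cell types, fewer cells of a type and less RNA per cell cannot be told apart. Whether the whole heart was taken from every animal is not given in the sources used here.

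Of the 7 genes, 3 were called higher in Cfp1-cKO hearts (Nppb, Nppa and Npr1) and none was called lower. Without Cfp1-cKO replicate 2 or WT replicate 1 the only call was Nppb. Among all 11017 tested genes 21.1% were called higher and 1.68% lower. For 5 members every Cfp1-cKO value lay above every WT value, which also held for 46.4% of all tested genes, and for none did every value lie below (3.23% of all tested genes). An unadjusted p under 0.05 was found for 5 members and for 43.8% of all tested genes. The median log2 fold change of the 7 members was 0.50, beside 0.35 for all tested genes. After median-of-ratios scaling 1 member was called, Nppb, and the median of the members was 0.08. Of all 11017 tested genes, 412 (3.74%) were then called higher and 358 lower. With this scaling the genotypes did not overlap for 2 members that were higher (16.7% of all tested genes) and for 1 that was lower (14.9% of all tested genes).

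**Figure D1:**
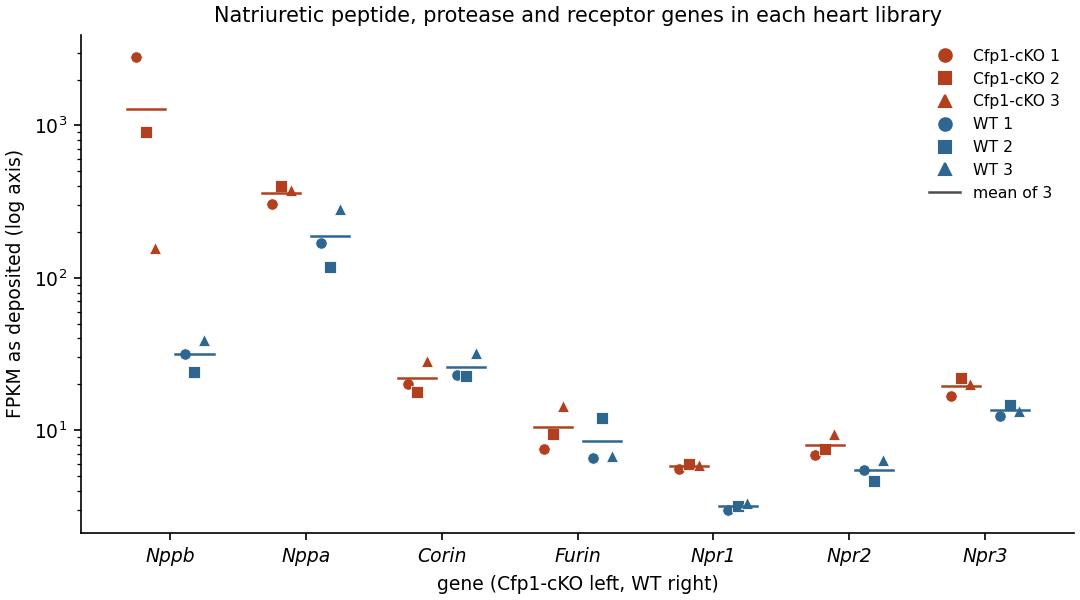
FPKM as deposited (vertical, log axis) of the 7 genes (horizontal) in each of 3 Cfp1-cKO libraries (left of each pair) and 3 WT libraries (right), 1 point per library, with a line at the mean of 3. Nppb spans 157 to 2798 FPKM in Cfp1-cKO and 24.1 to 39.2 FPKM in WT, while the values of Corin and Furin overlap between genotypes.

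Nppb, the BNP gene, stood at 2798, 899.6 and 157 FPKM in Cfp1-cKO hearts, against 31.6, 24.1 and 39.2 FPKM in WT hearts. All 3 Cfp1-cKO values were above all 3 WT values, the lowest of them 4.004 times the highest WT value, and the Cfp1-cKO libraries differed among themselves by 17.8-fold. The means were 1285 ± 1362 FPKM in Cfp1-cKO and 31.6 ± 7.53 FPKM in WT (SD, n = 3 each), a ratio of 40.6. The log2 fold change was 4.52 (limma adjusted p = 0.0127, standard error 0.85), and 99.9% of tested genes had a lower one. Nppb rested on 42579, 11714 and 2207 fragments in Cfp1-cKO and on 560, 355 and 551 in WT, so that counting error was small beside the differences between libraries. Protein-coding genes other than those of the mitochondrial genome, 17498 in all, were ranked from the highest FPKM. Nppb was at rank 7, 12 and 173 in the Cfp1-cKO libraries and at rank 858, 1157 and 674 in the WT libraries.

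Nppb was called with every library left out in turn, with log2 fold changes between 3.56 (without Cfp1-cKO replicate 1) and 5.63 (without Cfp1-cKO replicate 3). The limma adjusted p of these fits lay between 0.00101 and 0.0485, the highest, close to the threshold, without Cfp1-cKO replicate 2. After median-of-ratios scaling it was at 2622, 734 and 127 FPKM in Cfp1-cKO, against 37.0, 29.4 and 42.9 FPKM in WT, with a log2 fold change of 4.08 (limma adjusted p = 0.0407). The spread of Nppb on the log2 scale was 2.09 (SD, n = 3) in Cfp1-cKO, larger than that of 99.9% of tested genes, and 0.34 (SD, n = 3) in WT, larger than that of 75.8%. In the same Cfp1-cKO libraries the alveolar marker Sftpc was at 1202, 2163 and 3232 FPKM, lowest where Nppb was highest. Scgb1a1, which marks club cells of the airways, stood at 2904, 405 and 671 FPKM, highest where Nppb was highest. The part of lung RNA in the levels of Nppb was not tested.

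Nppa, the ANP gene, stood at 307.5, 400.6 and 375 FPKM in Cfp1-cKO hearts, against 169, 118 and 281 FPKM in WT hearts. The genotypes did not overlap, although the lowest Cfp1-cKO value was only 1.09 times the highest WT value, that of WT replicate 3. The means were 361 ± 48.1 FPKM in Cfp1-cKO and 189 ± 83.4 FPKM in WT (SD, n = 3 each), and the log2 fold change was 1.01 (limma adjusted p = 0.0408, standard error 0.29). This change was larger than that of 93.5% of tested genes. The Cfp1-cKO libraries differed from each other by 1.303-fold and the WT libraries by 2.38-fold, so that Nppa, unlike Nppb, varied less among Cfp1-cKO hearts than among WT hearts.

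The call of Nppa was lost when any 1 library other than WT replicate 3 was left out (adjusted p between 0.0623 and 0.132), and without WT replicate 3 the log2 fold change was 1.34 (adjusted p = 0.00884). After median-of-ratios scaling the genotypes overlapped, at 288, 327 and 304 FPKM in Cfp1-cKO and 198, 144 and 308 FPKM in WT, with a log2 fold change of 0.57 (95% confidence interval -0.07 to 1.202, limma adjusted p = 0.246). Nppa is known as an atrial gene at this age. Of 7 other atrial markers, Myl7, Sln and Mybphl were called lower in Cfp1-cKO as deposited, without overlap. The others overlapped between genotypes and were not called. The call of Mybphl was lost without any 1 library other than WT replicate 2. Myl7, a regulatory light chain of atrial myosin, stood at 11.5, 119 and 49.4 FPKM in Cfp1-cKO, against 557, 581 and 920 FPKM in WT. Sln, which encodes the calcium pump inhibitor sarcolipin, was at 3.43, 18.7 and 5.94 FPKM in Cfp1-cKO, against 48.7, 54.5 and 72.3 FPKM in WT. Exons of the antisense gene Gm13054 cover at most 532 bases of Nppa exons, and it was at no more than 1.502 FPKM in any library. Whether counting used strand is not given in the sources used here.

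The ratio of the ligands did not overlap between genotypes. Nppb had 9.10, 2.25 and 0.42 times the FPKM of Nppa in the Cfp1-cKO libraries and 0.19, 0.20 and 0.14 times in the WT libraries. Nppb was above Nppa in 2 of 3 Cfp1-cKO libraries and in none of the WT libraries. The difference of means of the log2 ratio was 3.55 (exact two-sided permutation test, p = 0.10, the lowest value possible with 3 libraries a genotype). Nppb made up 90.1%, 69.2% and 29.5% of the summed FPKM of Nppa, Nppb and Nppc in Cfp1-cKO and 15.8%, 16.9% and 12.2% in WT. A ratio within a library does not depend on the scaling between libraries. With any 1 library left out the difference of the log2 ratio stayed between 2.47 and 4.69.

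**Figure D2:**
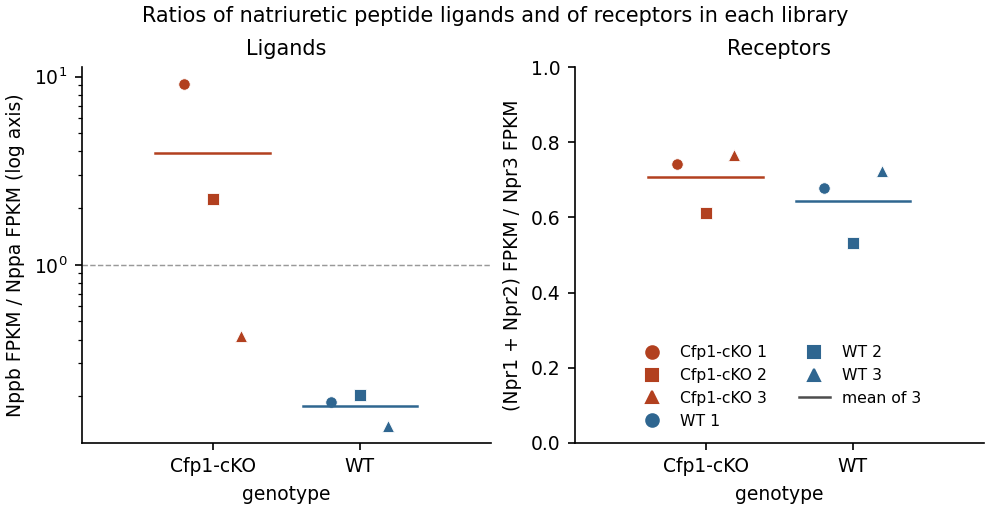
Left, the ratio of Nppb to Nppa FPKM (vertical, log axis) in each of 3 Cfp1-cKO and 3 WT libraries, with a dashed line at equal levels. Right, the ratio of the summed FPKM of Npr1 and Npr2 to that of Npr3 in the same libraries, with lines at the mean of 3. The ligand ratio is 0.42 to 9.10 in Cfp1-cKO and 0.14 to 0.20 in WT, and the receptor ratios of the genotypes overlap.

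The genes around Nppb and Nppa are given because neighbours on a chromosome can be transcribed together. Within 100 kilobases on either side of the pair 11 other genes were looked at, of which 5 were tested. Plod1, a collagen lysyl hydroxylase, was at 11.8, 16.6 and 13.7 FPKM in Cfp1-cKO, against 5.98, 5.31 and 9.21 FPKM in WT and was called higher (log2 fold change 0.96, limma adjusted p = 0.0214). Clcn6, which encodes an endosomal chloride transporter, was at 2.75, 2.12 and 2.62 FPKM in Cfp1-cKO, against 1.17, 0.88 and 1.52 FPKM in WT and was also called higher (log2 fold change 0.68, adjusted p = 0.0294). Mfn2, 2510039O18Rik and Agtrap had log2 fold changes of 0.16, 0.50 and 0.75 and were not called. The median of the 5 was 0.68, beside 0.35 for all tested genes. The largest change, 0.96 for Plod1, was far below the 4.52 of Nppb but close to the 1.01 of Nppa. The scale understates changes of low genes, and Plod1 and Clcn6 were lower than Nppa. Plod1 was not called without Cfp1-cKO replicate 2, Cfp1-cKO replicate 3 or WT replicate 1 (adjusted p between 0.0572 and 0.0868), nor Clcn6 without any 1 library other than WT replicate 3 (adjusted p between 0.0590 and 0.0918). After median-of-ratios scaling neither was called and the median of the 5 was 0.39, with Plod1 at 0.56, beside 0.57 for Nppa.

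**Figure D3:**
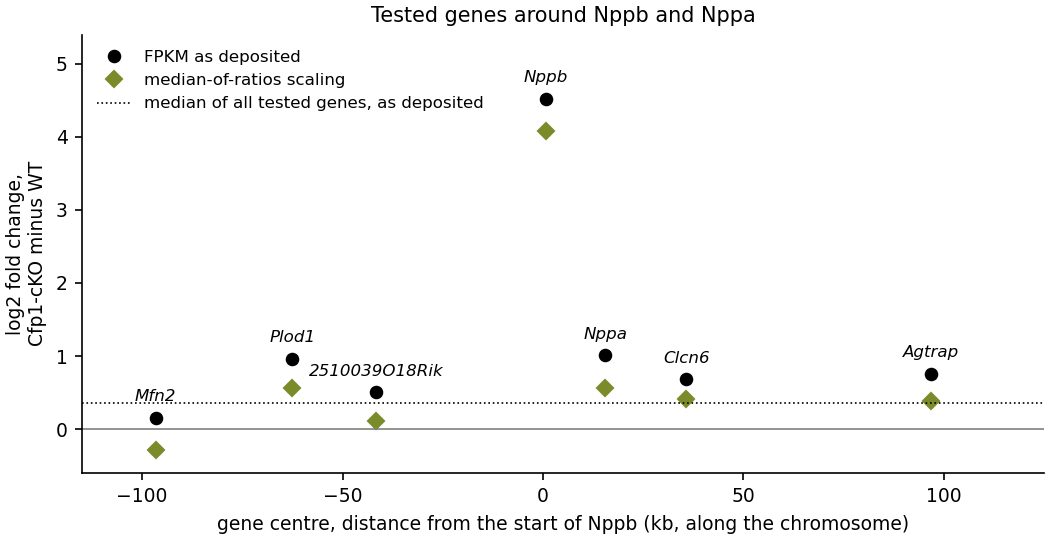
Log2 fold change, Cfp1-cKO minus WT, of log2(FPKM + 1) (vertical) against the distance of the gene's centre from the start of Nppb in kilobases (horizontal) for Nppb, Nppa and the 5 tested genes around them, 1 point per gene and scaling, without error bars. Nppb stands at 4.52 as deposited, and the 5 genes other than Nppb and Nppa lie between 0.16 and 0.96.

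The genes whose profile over the 6 libraries was nearest to that of a ligand were found among 10300 tested protein-coding genes, by the root mean square difference of log2(FPKM + 1) after each gene was centred on its own mean. Nearest to Nppa were Cyb5d1 (0.08), Synpo (0.10), Vcl (0.10), Ptgfrn (0.11) and Snx33 (0.11), against a spread of the Nppa profile itself of 0.63. Vcl, which encodes the adhesion protein vinculin, was at 16.5, 19.2 and 18.8 FPKM in Cfp1-cKO, against 9.37, 5.17 and 13.1 FPKM in WT, so that WT replicate 2 was lowest and WT replicate 3 nearest to Cfp1-cKO, as for Nppa. No gene came as near to Nppb. Its 5 nearest were Ankrd1 (0.91), Scgb3a2 (1.03), Cyp2f2 (1.07), Jchain (1.12) and Myh7 (1.19), against a spread of the Nppb profile of 2.57. Ankrd1, a stretch-responsive cofactor of the sarcomere, was at 4134, 2152 and 1012 FPKM in Cfp1-cKO, against 319, 112 and 221 FPKM in WT, in the same order of the Cfp1-cKO libraries as Nppb. Scgb3a2 and Cyp2f2 are genes of airway club cells and Jchain is a gene of plasma cells, and each was at no more than 0.06 FPKM in a WT library. The 6 libraries fall into 2 genotypes, and likeness over them says nothing of shared control.

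Corin, the ANP-processing protease (chr5:72300025-72504473), stood at 20.03, 17.8 and 28.3 FPKM in Cfp1-cKO hearts, against 22.9, 22.7 and 31.9 FPKM in WT hearts. The genotypes overlapped, and the log2 fold change was -0.23 (95% confidence interval -0.72 to 0.26, limma adjusted p = 0.421). After median-of-ratios scaling Corin was at 18.8, 14.5 and 22.9 FPKM in Cfp1-cKO, against 26.9, 27.6 and 35.0 FPKM in WT, without overlap, and the log2 fold change was -0.66 (95% confidence interval -1.12 to -0.19, adjusted p = 0.0955), still not called. Corin was the only member with a negative value on the deposited scale, where 7.58% of tested genes had a lower one, and with 1 library left out this value was between -0.41 (without Cfp1-cKO replicate 3) and -0.07 (without WT replicate 3), never called.

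Furin, the BNP-processing protease (chr7:80388585-80405436), stood at 7.49, 9.44 and 14.3 FPKM in Cfp1-cKO hearts, against 6.57, 12.1 and 6.78 FPKM in WT hearts. Cfp1-cKO replicate 3 and WT replicate 2 were the high libraries of their genotypes, and the ranges overlapped. The log2 fold change was 0.27 (95% confidence interval -0.37 to 0.91, limma adjusted p = 0.462), and after median-of-ratios scaling it was -0.13 (95% confidence interval -0.78 to 0.52). With 1 library left out it was between 0.04 (without Cfp1-cKO replicate 3) and 0.53 (without WT replicate 2) on the deposited scale and was not called.

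Npr1, the cGMP-making receptor of ANP and BNP (chr3:90450591-90465866), stood at 5.53, 5.97 and 5.90 FPKM in Cfp1-cKO hearts, against 2.98, 3.19 and 3.32 FPKM in WT hearts. The replicates of a genotype lay close together, within 1.08-fold in Cfp1-cKO and 1.11-fold in WT, and the lowest Cfp1-cKO value was 1.66 times the highest WT value. The means were 5.80 ± 0.24 FPKM in Cfp1-cKO and 3.17 ± 0.17 FPKM in WT (SD, n = 3 each). The log2 fold change was 0.71 (limma adjusted p = 0.0137, standard error 0.14), and 82.9% of tested genes had a lower one. Npr1 had 476 to 515 fragments in a Cfp1-cKO library and 286 to 324 in a WT library. After median-of-ratios scaling the values were 5.18, 4.87 and 4.78 FPKM in Cfp1-cKO and 3.50, 3.89 and 3.64 FPKM in WT, still without overlap, but Npr1 was not called (log2 fold change 0.35, limma adjusted p = 0.128). Its call was also lost without Cfp1-cKO replicate 2 (adjusted p = 0.0648) or WT replicate 1 (adjusted p = 0.0605).

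Npr3, the clearance receptor (chr15:11839896-11905674), stood at 16.7, 22.1 and 20.02 FPKM in Cfp1-cKO hearts, against 12.4, 14.7 and 13.4 FPKM in WT hearts. The genotypes did not overlap, but the log2 fold change of 0.50 (limma adjusted p = 0.0520, standard error 0.16) was not called. Npr3 was called without Cfp1-cKO replicate 1 (log2 fold change 0.60, adjusted p = 0.0492). Npr2, the CNP receptor (chr4:43631935-43651244), stood at 6.83, 7.54 and 9.46 FPKM in Cfp1-cKO hearts, against 5.47, 4.64 and 6.40 FPKM in WT hearts. The lowest Cfp1-cKO value of Npr2 was 1.07 times the highest WT value, and the log2 fold change of 0.46 (limma adjusted p = 0.0831, standard error 0.18) was not called. After median-of-ratios scaling the genotypes overlapped for both, with log2 fold changes of 0.08 (95% confidence interval -0.26 to 0.42) for Npr3 and 0.07 (95% confidence interval -0.26 to 0.40) for Npr2.

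The balance of cGMP-making to clearance receptors did not separate the genotypes. The summed FPKM of Npr1 and Npr2 was 0.74, 0.61 and 0.77 times that of Npr3 in Cfp1-cKO and 0.68, 0.53 and 0.72 times in WT. The log2 ratio differed by 0.14 between genotypes (two-sided exact permutation test, p = 0.50), and by 0.0054 (without WT replicate 2) to 0.24 (without Cfp1-cKO replicate 2) with 1 library left out. Vascular, endocardial and lung cells express natriuretic peptide receptors, so markers of cell types other than cardiomyocytes are given beside these values. Whether the RNA of these markers came from heart or from lung was not tested. Endocardial markers summed to 31.6 to 51.9 FPKM in Cfp1-cKO and 17.98 to 18.12 FPKM in WT, with 2 of 4 tested called higher. Endothelial markers summed to 170.6 to 244.8 FPKM in Cfp1-cKO and 130.1 to 171.1 FPKM in WT, with 2 of 7 called higher and overlapping sums. Smooth muscle and pericyte markers also overlapped in sum, at 362 to 415 FPKM in Cfp1-cKO and 231 to 395 FPKM in WT, with 1 of 6 tested called higher. Fibroblast markers summed to 415 to 614 FPKM in Cfp1-cKO and 258 to 339 FPKM in WT, with 1 of 7 called higher. These shares stand beside the 21.1% of all tested genes called higher. None of these 4 lists had a call after median-of-ratios scaling or without Cfp1-cKO replicate 2, and after scaling their medians were 0.47 (endocardial), -0.15 (endothelial), -0.03 (smooth muscle and pericyte) and 0.56 (fibroblast). Without WT replicate 1 the fibroblast list alone had a call, without Cfp1-cKO replicate 3 the endothelial and smooth muscle lists had none, without Cfp1-cKO replicate 1 the smooth muscle list had none, and without WT replicate 3 the fibroblast list had 4. Leukocyte markers summed to 35.6 to 43.2 FPKM in Cfp1-cKO and 3.61 to 6.37 FPKM in WT. Of 3 tested, 2 were called higher as deposited and after scaling, and 1 without Cfp1-cKO replicate 2. Epicardial markers summed to 9.32 to 25.3 FPKM in Cfp1-cKO and 3.63 to 5.38 FPKM in WT. Of 4 tested, 3 were called higher, 1 after scaling and 2 without Cfp1-cKO replicate 2. Erythroid markers had no call as deposited. The part of these cells and of lung RNA in the receptor values was not tested.

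**Figure D4:**
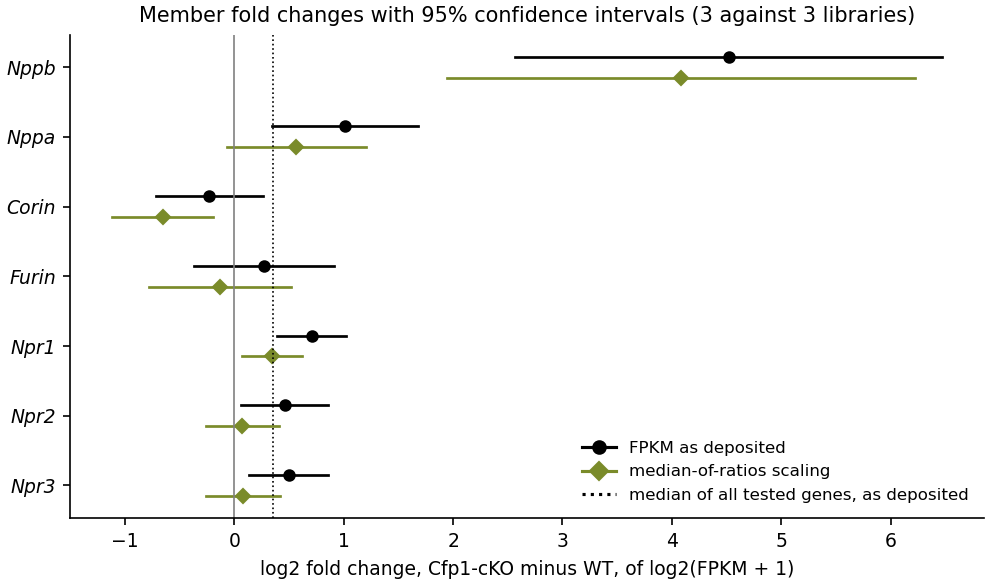
Log2 fold change, Cfp1-cKO minus WT, of log2(FPKM + 1) (horizontal) for the 7 genes (vertical), from limma with 3 libraries per genotype, where bars are 95% confidence intervals. Black circles are FPKM as deposited, green diamonds are after median-of-ratios scaling, and the dotted line is the median of all tested genes, 0.35. With scaling, the intervals of Nppb, Npr1 and Corin exclude 0, and Nppb alone is called.

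In Cfp1-cKO hearts the order of the levels from high to low was Nppb (mean 1285 FPKM), Nppa (361), Corin (22.0), Npr3 (19.6), Furin (10.4), Npr2 (7.94) and Npr1 (5.80), with overlap over the libraries between Nppb and Nppa, Corin and Npr3, and Furin and Npr2. In WT hearts the order was Nppa (mean 189 FPKM), Nppb (31.6), Corin (25.8), Npr3 (13.5), Furin (8.48), Npr2 (5.502) and Npr1 (3.17), of which Nppb and Corin overlapped and the other neighbours did not. FPKM are per length of the exons annotated for a gene, not of the transcripts expressed. The order of genes at near levels may therefore depend on the length used.

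A further list held the other ligands of the family and genes that modify or degrade the peptides. Of 8 such genes 6 were tested, 3 were called higher and none lower, and the median log2 fold change was 0.47, beside 0.35 for all tested genes. After median-of-ratios scaling 1 was called higher and the median was 0.04. The counts called in this list and those that follow stand beside shares of all tested genes. As deposited 21.1% were called higher and 1.68% lower. After scaling 3.74% were called higher, and 358 of 11017 genes were called lower. Nppc, the CNP gene, was not tested, with 2, 2 and 1 fragments in the Cfp1-cKO libraries and 1, 2 and 0 in the WT libraries, so that a difference was not detectable at this depth. Mme, or neprilysin, which degrades natriuretic peptides, was at 1.51, 1.41 and 1.68 FPKM in Cfp1-cKO, against 0.74, 0.57 and 0.72 FPKM in WT (log2 fold change 0.59, limma adjusted p = 0.0309). Dpp4, a dipeptidyl peptidase that trims BNP, was at 3.01, 4.52 and 3.63 FPKM in Cfp1-cKO, against 1.51, 0.80 and 1.37 FPKM in WT (log2 fold change 1.09, adjusted p = 0.0114). Galnt1, a glycosyltransferase that adds sugars to the BNP precursor, was at 23.5, 26.0 and 26.4 FPKM in Cfp1-cKO, against 17.4, 16.8 and 18.4 FPKM in WT (log2 fold change 0.50, adjusted p = 0.0342). Dpp4 was called with any 1 library left out and after scaling (log2 fold change 0.79), while Mme (adjusted p between 0.0532 and 0.0965) and Galnt1 (adjusted p between 0.0507 and 0.127) lost their calls without any 1 library other than WT replicate 3, and both lost them after scaling.

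Downstream of the receptors, 13 of 19 genes of cGMP signalling were tested, of which 5 were called higher and 1 lower, with a median log2 fold change of 0.45. No gene of the list was called without Cfp1-cKO replicate 2 or WT replicate 1, and 1 was called higher without Cfp1-cKO replicate 3. Prkg1, the cGMP-dependent protein kinase, was at 2.03, 2.62 and 2.98 FPKM in Cfp1-cKO, against 0.81, 0.54 and 1.42 FPKM in WT (log2 fold change 0.90, limma adjusted p = 0.0234). Vasp, an actin regulator that this kinase phosphorylates, was at 12.4, 18.7 and 14.7 FPKM in Cfp1-cKO, against 8.62, 7.03 and 8.91 FPKM in WT (log2 fold change 0.81, adjusted p = 0.0215). Rgs4, which shortens signalling by heterotrimeric G proteins, was at 17.1, 14.2 and 7.96 FPKM in Cfp1-cKO, against 5.59, 7.04 and 6.83 FPKM in WT (log2 fold change 0.86, adjusted p = 0.0439). Rgs2, of the same family and a target of the kinase, was called lower, at 5.48, 10.2 and 13.2 FPKM in Cfp1-cKO, against 41.8, 26.8 and 16.3 FPKM in WT (log2 fold change -1.44, adjusted p = 0.0302). Each of these 4 lost its call without at least 1 further library as well, and their adjusted p wherever a call was lost lay between 0.0563 and 0.144. After median-of-ratios scaling Rgs2 was the only call in the list (log2 fold change -1.86, adjusted p = 0.0285), and the median was 0.05.

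Of 20 transcription factors and cofactors known to act on Nppa or Nppb, all tested, 3 were called higher and none lower, and their median log2 fold change of 0.17 was below the 0.35 of all tested genes. Srf, the serum response factor that binds the CArG box, was at 16.8, 18.4 and 16.5 FPKM in Cfp1-cKO, against 5.97, 6.27 and 7.08 FPKM in WT (log2 fold change 1.296, limma adjusted p = 0.00145), and it was called with any 1 library left out and after scaling (log2 fold change 0.89). Tbx20, a T-box factor of the heart, was at 13.7, 22.7 and 27.4 FPKM in Cfp1-cKO, against 10.1, 9.27 and 11.7 FPKM in WT (log2 fold change 0.92, adjusted p = 0.0313). Tbx2, a T-box repressor of chamber genes including Nppa, was at 3.68, 3.24 and 3.37 FPKM in Cfp1-cKO, against 1.56, 2.33 and 1.96 FPKM in WT (log2 fold change 0.60, adjusted p = 0.0334). Tbx20 lost its call without Cfp1-cKO replicate 2, Cfp1-cKO replicate 3, WT replicate 1 or WT replicate 2 (adjusted p between 0.0634 and 0.111) and Tbx2 without any 1 library other than WT replicate 2 (adjusted p between 0.0546 and 0.124), and neither was called after scaling. After scaling Srf was the only higher call and Hey2, a repressor of atrial genes in ventricles, the only lower one (log2 fold change -0.74), and the median was -0.17. The other listed GATA, Tead, Nkx and T-box factors are named because their sequences were searched in the promoters, a choice made after their values were seen. Their log2 fold changes were 0.43 for Gata4, -0.63 for Gata6, 0.37 for Tead1, 0.47 for Nkx2-5, 0.26 for Tbx3 and -0.23 for Tbx5. None of these was called.

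Nppa and Nppb are commonly read together with other genes of cardiac stress and of the fetal heart. Of 14 such genes 13 were tested, 11 were called higher and none lower, and their median log2 fold change was 1.84, beside 0.35 for all tested genes. After median-of-ratios scaling 5 were called higher and none lower, and the median was 1.43. As deposited, 6 were called higher without WT replicate 1, where Fhl1, Rcan1, Xirp2, Tnfrsf12a and Gdf15 lost their calls, and 7 without either Cfp1-cKO replicate 2 or WT replicate 2. Acta1, the skeletal actin of the fetal heart, was at 182, 67.0 and 154 FPKM in Cfp1-cKO, against 8.26, 0.55 and 17.4 FPKM in WT (log2 fold change 4.28, limma adjusted p = 0.0124). Myh7, a myosin heavy chain that prevails in the fetal ventricle, was at 275, 132 and 205 FPKM in Cfp1-cKO, against 12.8, 8.20 and 14.02 FPKM in WT (log2 fold change 3.99, adjusted p = 0.000181). For Ankrd1 the log2 fold change was 3.38 (adjusted p = 0.00650). Nmrk2, a kinase of the nicotinamide riboside pathway, was at 16.1, 12.4 and 8.74 FPKM in Cfp1-cKO, against 1.14, 0.23 and 3.03 FPKM in WT (log2 fold change 2.57, adjusted p = 0.00662). These 4 genes were called with any 1 library left out and after scaling. The same Cfp1-cKO libraries carried the lung epithelial RNA described above, and its part in these lists was not tested.

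**Figure D5:**
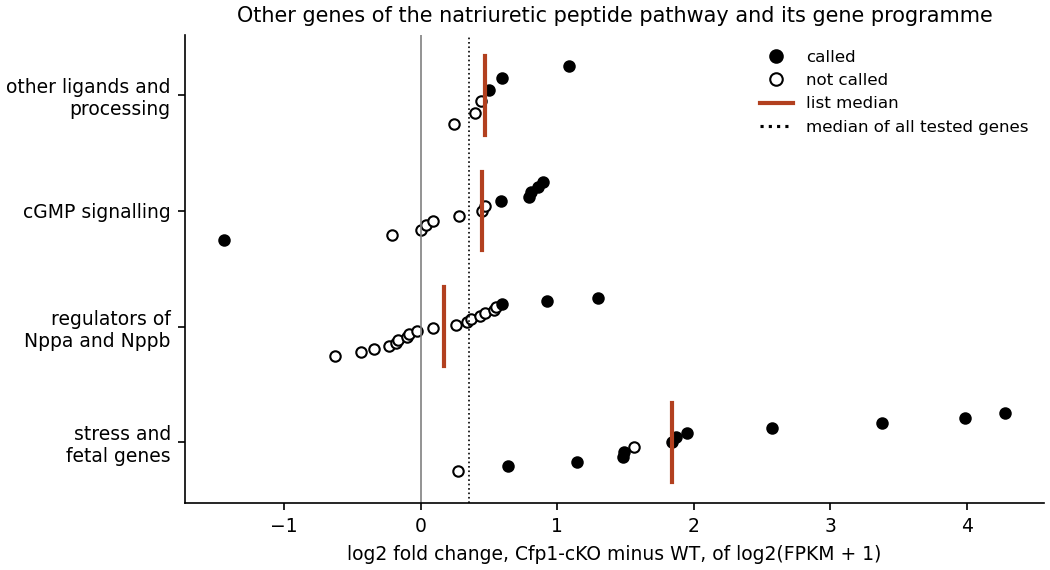
Log2 fold change, Cfp1-cKO minus WT, of log2(FPKM + 1) as deposited (horizontal) for the tested genes of 4 lists (vertical), 1 point per gene spread vertically for legibility, filled where called. Red bars are list medians, 0.47, 0.45, 0.17 and 1.84 from top to bottom, and the dotted line is the median of all tested genes, 0.35.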

How the data were processed

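The authors deposited FPKM per gene for 3 Cfp1-cKO and 3 WT heart libraries, prepared with an Illumina TruSeq RNA kit. The submitters' notes name GRCm38, CASAVA, Bowtie2 2.2.3, TopHat2, HISAT2 2.1.0, HTSeq 0.6.0 and DESeq2 without their order, and the paper gives the address of a chicken genome. The extraction text speaks of retinas and could not be related to these hearts. Of 26881 genes, 26801 matched GENCODE release M21 by identifier, and 24440 had equal coordinates. FPKM were whole multiples of 1 fragment, within 0.02, for 99.996% of genes, 23978 with the GENCODE exon length and 2902 with another, which gave the library totals. Fragments over genes came to 105% to 106% of these totals. Genes of the mitochondrial genome took 29.6% to 34.9% of the total in Cfp1-cKO and 36.9% to 39.2% in WT.

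The members and lists were chosen with earlier results of these data known. R 4.3.3 with limma 3.58.1 (trended prior variance) was used to fit log2(FPKM + 1) of the 11017 genes whose mean reached 1 FPKM, and p-values were adjusted over all of them (Benjamini-Hochberg). On simulated fragments for the same comparison (10890 genes tested) calls were made for 9 of 78 genes simulated with a 1.5-fold change, for 51 of 64 with a 2-fold change and for 49 of 49 with a 4-fold change, and falsely for 14. Besides the members, the text names Cxxc1, up to 4 called genes of each list by size of change, Nppc and Mme, the 5 nearest profiles of each ligand and the tested genes within 100 kilobases, of which 1 is not reported here and was left out of the counts and medians of that window. Alternatives changed the pseudocount, the filter, the scaling, the variance prior and the method (voom on recovered fragments), added the replicate number as a block, or left out 1 library. Tables and plots were made in Python 3.11.15 (scipy 1.17.1, numpy 2.4.6, matplotlib 3.10.9, pandas 2.3.3).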

Additional observations from a re-analysis of the deposited data

How the results depend on the processing

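With 3 libraries a genotype, the number of calls depended on single libraries and on scaling. As deposited, 2510 genes were called, 2325 higher and 185 lower (92.6% higher). Without a filter on low values the counts were 1609, 1518 and 91, and without genes of the mitochondrial genome and haemoglobin in the totals 1659 and 1448. Median-of-ratios scaling over all genes above 0 gave 769, 326 and 443 (42.4% higher), and over tested genes only, an alternative chosen after seeing the data, 770, 412 and 358 (53.5% higher). Leaving out 1 library gave 588 to 2789 calls, 538 to 2588 higher and 50 to 201 lower. The members called numbered 3, but 1 with either scaling and 1 to 3 with a library left out. Nppb was called under every alternative, with log2 fold changes of 3.56 to 5.63 and adjusted p of 0.00101 to 0.0485. Nppa was not called without the filter (1.01, adjusted p = 0.0953), with scaling over all genes (0.47, 0.302) or tested genes (0.57, 0.246), or without mitochondrial and haemoglobin genes (0.88, 0.0806), and with a library left out its fold change was 0.72 to 1.34. Npr1 was not called with scaling over all genes (0.27, 0.228) or tested genes (0.35, 0.128), and with a library left out its fold change was 0.67 to 0.74. Npr3 was called by voom on recovered fragments (0.53, 0.0496) and ranged from 0.41 to 0.60 with a library left out. Scaling over all genes turned Npr2 to -0.013, Npr3 to -0.017 and Furin to -0.22, and scaling over tested genes turned Furin to -0.13, none of them called. Voom on these fragments gave 2749 calls.

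Deviations of libraries with the same replicate number correlated at 0.108, 0.036 and 0.104. Those of libraries with different numbers correlated lower, at -0.119 to 0.029. Whether the number marks a shared batch is not given in the sources used here and was not tested. With the replicate block 1749 genes were called, 1597 higher and 152 lower, Nppa was not called (1.01, adjusted p = 0.0564), and the calls of the other members did not change. The smallest p of an exact permutation test was 0.10, so the ratios could not pass a threshold. Nppc, with 0 to 2 fragments a library, was below what this depth resolves.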
